A study of Mus musculus and Homo sapiens with 23 samples.

Results

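Oxidative phosphorylation is the process by which mitochondria turn the electrons of food into ATP. Complexes I, III and IV of the inner mitochondrial membrane pass electrons to oxygen and pump protons, and complex V, the ATP synthase, lets the protons flow back and makes ATP. Each complex is built mostly from subunits encoded in the nucleus around a core encoded by mitochondrial DNA. Several subunits, above all of complex IV, exist as isoforms from separate genes, with a ubiquitous form and a form known from muscle, lung or testis. In macrophages, stimulation with bacterial products is known to shift ATP production towards glycolysis.

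The genes described here are the nuclear genes of these 4 complexes whose mouse symbols begin with Nduf followed by a, b, c, s or v, with Uqcr, with Cox and a digit of 4 to 8, or with Atp5, pseudogenes apart. The pattern found 89 genes among the 22440 gene symbols of the deposited tables: 44 of complex I, 8 of complex III, 20 of complex IV and 17 of complex V. The product of Ndufa4, named for complex I, is now known as a complex IV subunit, so Ndufa4 and its relative Ndufa4l2 were counted with complex IV. The pattern also takes in 8 counted complex I assembly factors of the Ndufaf series and Cox7a2l, a factor that joins complexes III and IV into supercomplexes. None of the genes of the mitochondrial chromosome was in the tables, so the mitochondrially encoded core subunits were not analysed here.

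The RNA came from BV2, a line of immortalised mouse microglia, which are the macrophages of the brain. A library came from BV2 cells given lipopolysaccharide (LPS), a Gram-negative cell wall component, for 3 h, and its control from BV2 cells left unstimulated. The other 21 of the series' 23 samples are chromatin samples and were not analysed here. With 1 library per group there is no replicate and no test: each difference below compares 2 libraries, and the bracketed 95% intervals are those the authors' Cufflinks run deposited, or were computed from them for a ratio, and cover counting and read assignment only.

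The libraries held an implied 16910000 fragments for LPS and 13790000 for unstimulated cells, to the nearest 10000. Of 10 microglia and macrophage markers with a value, 9 were at 1 FPKM (fragments per kilobase of transcript, scaled to the library's size) or more in at least 1 library. Tyrobp, a macrophage signalling adaptor, stood at 3064 FPKM in LPS and 4128 FPKM in unstimulated cells, but the microglia markers Cx3cr1 and Tmem119 were at 0.0615 and 0.601 FPKM in LPS, against 0.142 and 2.16 FPKM in unstimulated cells. The 5 LPS response genes summed to 4951 FPKM in LPS and 21.8 FPKM in unstimulated cells. No marker of neurons, astrocytes, oligodendrocytes, striated muscle, testis germ cells or brown fat reached 1 FPKM in either library. In bulk RNA, fewer cells of a type and less RNA per cell cannot be told apart.

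After 3 h of LPS, none of the counted genes of the name pattern had changed 2-fold in FPKM, apart from Ndufs5, whose reads could not be assigned. With TPM, Cox7b, Ndufa5 and Ndufaf4 passed 2-fold downwards, and with quantile normalisation Cox7b and Ndufa5 did. Changes are given as log2(FPKM + 1) in LPS minus log2(FPKM + 1) in unstimulated cells, a scale that understates changes of low genes. Of the 89 genes, 82 were counted, meaning at 1 FPKM or more in at least 1 library with an accepted status in both. At 2-fold, 1 of the 82 was higher in LPS, where 8.55% of the 10035 counted genes of all kinds were, and 0 were lower, where 12.4% of all counted genes were. The 1 higher gene was Ndufs5. At 1.5-fold, 3 were higher and 5 lower, against 13.8% and 29.7% of all counted genes. The 5 lower genes were Cox7b, Ndufa5, Ndufaf4, Uqcrb and Atp5md, and besides Ndufs5 the higher ones were Cox6a2 and Atp5d. These counts moved with the scaling: 1 was higher and 21 lower with TPM, 1 higher and 18 lower with quantile normalisation, and 5 higher and 3 lower with median scaling. The median of all counted genes moved as well, to -0.48 with TPM, -0.12 with quantile normalisation and -0.05 with median scaling. Shares of all counted genes past 1.5-fold or 2-fold were not computed under these scalings, here or below. Cox6a2 and Atp5d were under 1.5-fold with TPM and quantile normalisation, and Uqcrb and Atp5md with median scaling.

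Differences smaller than this exceeded counting error for many genes, and 80 of the 82 genes had at least 100 implied fragments in both libraries. The deposited intervals of the libraries did not overlap for 18 genes higher in LPS and 34 genes lower in LPS, and overlapped for the other 30. Among all counted genes the intervals separated upwards for 25.1% and downwards for 48.4%. Below 0 lay 50 of the 82, against 64.2% of all counted genes, and the median change was -0.08 for the 82 and -0.24 for all counted genes. The sign of that median depended on the scaling: it was -0.32 with TPM (FPKM rescaled to the same sum in each library) and -0.31 with quantile normalisation, but 0.14 with median scaling. Its place relative to all counted genes also turned: it lay 0.16 above their median with FPKM, and at -0.19 relative to it with quantile normalisation. The 82 genes summed to 27977 FPKM in LPS and 30460 FPKM in unstimulated cells, which is 4.26% of all FPKM in LPS and 5.50% in unstimulated cells. All FPKM summed to 656068 in LPS and 553567 in unstimulated cells, so the larger total in LPS is part of that difference in share.

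**Figure D1:**
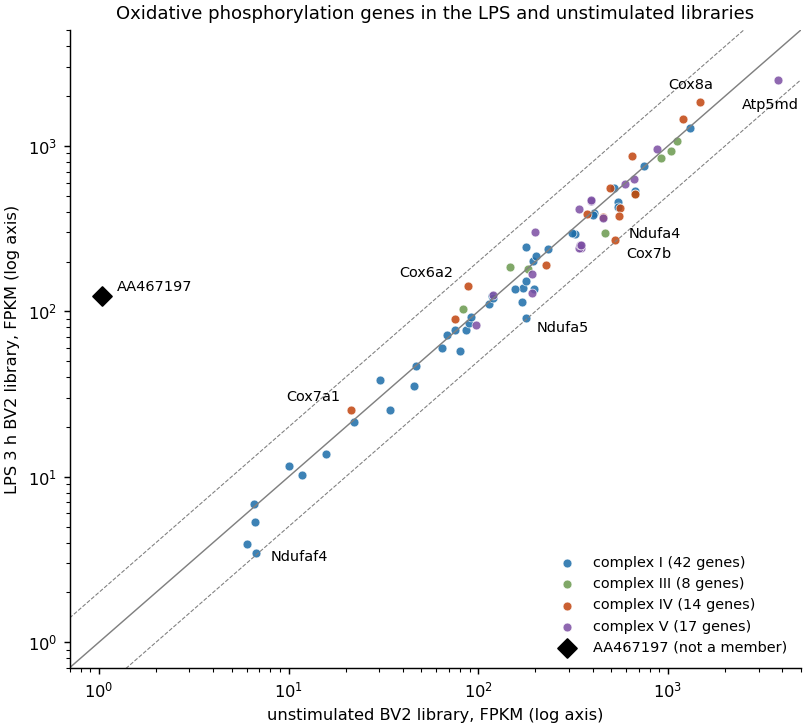
FPKM in LPS against FPKM in unstimulated BV2 cells, both on log axes, for 81 counted genes of complexes I, III, IV and V (Ndufs5 left out) and for AA467197, a relative of Ndufa4, with dashed lines at a 2-fold difference. All 81 genes lie between the dashed lines, and AA467197 lies far outside them, at 124 FPKM in LPS and 1.04 FPKM in unstimulated cells.

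Within complex I, the core subunits as a group lay close to 0 with FPKM, and a few accessory subunits and assembly factors lay further below it. The 43 counted genes had a median change of -0.07 and summed to 8158 FPKM in LPS and 8786 FPKM in unstimulated cells. The 6 counted core subunits, which carry the flavin and the iron-sulphur clusters, had a median change of 0.02. That median was -0.23 with TPM and with quantile normalisation, and 0.24 with median scaling. Among the core subunits Ndufv1, the flavin-binding subunit that accepts electrons from NADH, stood at 38.5 FPKM (36.3 to 40.7) in LPS and 30.5 FPKM (28.5 to 32.5) in unstimulated cells. Its partner in the NADH-oxidising module, Ndufv2, stood at 136 FPKM (132 to 140) in LPS and 196 FPKM (191 to 201) in unstimulated cells. The intervals of both genes separate, in opposite directions. Ndufs3, Ndufs7 and Ndufs8, subunits of the arm that hands electrons to ubiquinone, had changes between -0.03 and 0.02, and their intervals overlapped. Ndufs1, the largest core subunit, was listed at 39.5 FPKM in LPS and 63.1 FPKM in unstimulated cells, where Cufflinks marked its estimate as failed, so it was not counted.

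Of the 29 counted accessory subunits of complex I, 28 had changes between -0.95 and 0.45, with Ndufs5 apart. Ndufa5 (chr6:24468666-24477687, mm9), a subunit of the matrix arm, had the lowest log2(FPKM + 1) change of the complex. It stood at 91.7 FPKM (84.9 to 98.5) in LPS and 178 FPKM (168 to 188) in unstimulated cells, a ratio of 0.515 (0.470 to 0.564) and a change of -0.95. Ndufa7 (chr17:33961559-33975258) had the highest positive change, 0.45, at 244 FPKM (231 to 256) in LPS and 178 FPKM (168 to 189) in unstimulated cells. So Ndufa5 and Ndufa7, at nearly the same level in unstimulated cells, were apart by more than their intervals in LPS. Ndufb8, a membrane arm subunit and the most abundant transcript of the complex, stood at 1292 FPKM (1269 to 1314) in LPS and 1313 FPKM (1290 to 1337) in unstimulated cells, with overlapping intervals. Ndufb5, also of the membrane arm, was at 114 FPKM in LPS and 170 FPKM in unstimulated cells, a change of -0.57.

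The Ndufs5 value cannot be read as a change of the gene. Ndufs5 (chr4:123389953-123395429), an accessory subunit, was listed at 2.89 FPKM (1.09 to 4.69) in LPS and 5.87e-05 FPKM (0 to 0.299) in unstimulated cells, on 10 implied fragments in LPS. At the same locus a row that carries the name of the pseudogene Ndufs5-ps held 307 FPKM in LPS and 387 FPKM in unstimulated cells, under a low-data status. A further Ndufs5-ps row on chromosome 16 held 57.2 FPKM in LPS and 70.9 FPKM in unstimulated cells. The reads of gene and pseudogene were therefore split in a way that the table does not resolve.

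The 8 counted Ndufaf assembly factors, proteins that help build complex I and leave it, were far less abundant, at 3.44 to 57.2 FPKM in LPS and 6.03 to 79.7 FPKM in unstimulated cells. Their median change was -0.23, close to the -0.24 of all counted genes. It was below that of the core with FPKM, TPM and median scaling, but with quantile normalisation it was -0.12 and the core median -0.23. Ndufaf4 stood at 3.44 FPKM (3.02 to 3.86) in LPS and 6.73 FPKM (6.13 to 7.33) in unstimulated cells, a ratio of 0.511 (0.440 to 0.594) and a change of -0.80. Ndufaf3, at 6.83 FPKM in LPS and 6.54 FPKM in unstimulated cells, alone of the 8 had a change above 0, and its intervals overlapped. Among all counted genes 64.2% lay below 0.

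The summed level of a gene can hide its transcripts. Ndufv3, a small accessory subunit beside the flavin site, has 2 rows that cover the same locus (chr17:31657060-31668270). The first held 65.7 FPKM (59.1 to 72.3) in LPS and 42.1 FPKM (36.3 to 47.9) in unstimulated cells. The second held 11.3 FPKM (10.1 to 12.6) in LPS and 33.4 FPKM (31.2 to 35.5) in unstimulated cells, a change of -1.48. The second row thus made up 14.7% of the gene's FPKM in LPS and 44.2% in unstimulated cells, while the sum stood at 77.0 FPKM in LPS and 75.5 FPKM in unstimulated cells. The split depends on how Cufflinks assigned reads shared by the 2 rows, which was not tested. Of 86 counted single rows of the 82 genes, 1 was at least 2-fold higher, that of Ndufs5, where 9.85% of 11493 counted rows of all genes were. Lower by 2-fold were 2 rows, the second row of Ndufv3 and a minor row of Cox7a2l with 16.0 FPKM (5.56 to 26.4) in LPS and 37.1 FPKM (33.5 to 40.8) in unstimulated cells, where 13.6% of all counted rows were.

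**Figure D2:**
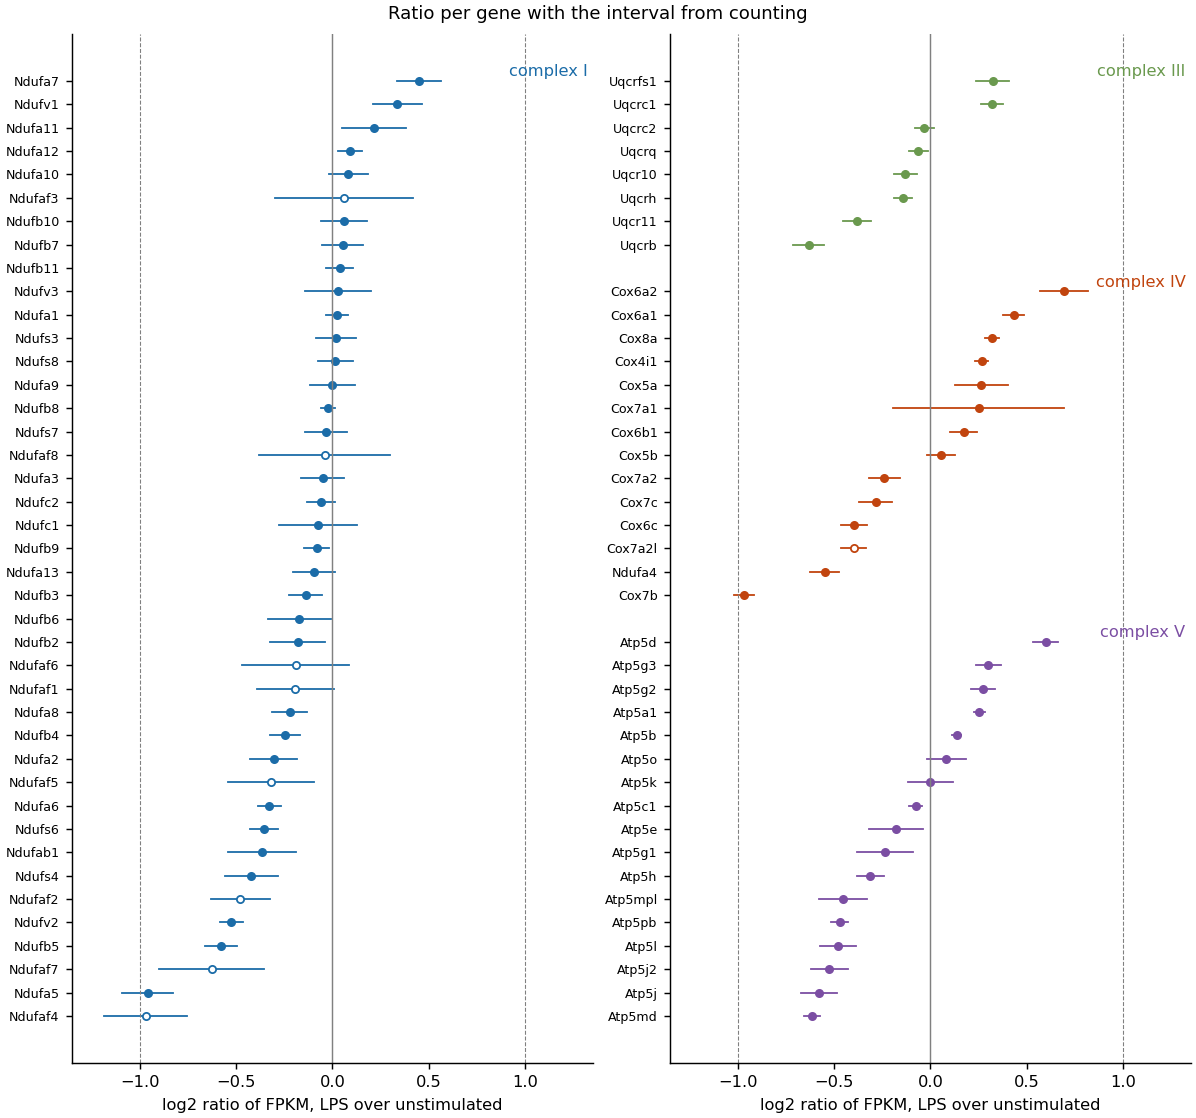
Log2 ratio of FPKM in LPS over unstimulated BV2 cells for counted genes, by complex, with bars for the 95% interval computed from the deposited bounds, open circles for assembly factors and Cox7a2l, and dashed lines at 2-fold. The ratios of Cox7b, Ndufa5 and Ndufaf4 lie lowest, at 0.511, 0.515 and 0.511, and that of Cox6a2 lies highest, at 1.62.

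In complex III, the bc1 complex that passes electrons from ubiquinol to cytochrome c, 2 of the 3 large subunits had changes above 0 and all 5 small subunits had changes below 0. The 8 genes had a median change of -0.10 and summed to 4119 FPKM in LPS and 4608 FPKM in unstimulated cells. Uqcrfs1 (chr13:30632181-30637185), the Rieske iron-sulphur protein, stood at 104 FPKM (99.7 to 108) in LPS and 82.9 FPKM (79.2 to 86.6) in unstimulated cells, a change of 0.32. Uqcrc1, a core protein facing the matrix, had a like change, at 184 FPKM in LPS and 148 FPKM in unstimulated cells. Uqcrc2, its partner, stood at 179 FPKM in LPS and 184 FPKM in unstimulated cells, and its intervals overlapped. Of all counted genes 64.2% lay below 0. With FPKM the median of the small subunits, -0.14, lay above the -0.24 of all counted genes. With quantile normalisation it was -0.48, below the -0.12 of all counted genes. The small subunits summed to 3651 FPKM in LPS and 4194 FPKM in unstimulated cells. Uqcrb (chr13:67001557-67006286), which helps form the ubiquinone site, was the lowest, at 299 FPKM (286 to 313) in LPS and 464 FPKM (447 to 481) in unstimulated cells, a change of -0.63. The most abundant, Uqcrq (chr11:53242450-53244333), stood at 1064 FPKM in LPS and 1111 FPKM in unstimulated cells. With median scaling the median of the small subunits was 0.08, so their sign rests on the scaling, while the core median of 0.32 stayed above 0, at 0.07 with TPM, 0.05 with quantile normalisation and 0.54 with median scaling.

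Cytochrome c1 and cytochrome c lie outside the name pattern but in the same electron path. Cyc1, the haem subunit of complex III, stood at 230 FPKM in LPS and 204 FPKM in unstimulated cells. Cycs, the carrier between complexes III and IV, stood at 105 FPKM in LPS and 120 FPKM in unstimulated cells. Both changes were small, at 0.17 and -0.18.

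Complex IV, cytochrome c oxidase, had the highest median change of the complexes, 0.11 over its 14 counted genes, which ran from -0.97 to 0.69. The order from complex IV through I and III to V was the same with TPM and median scaling, and with quantile normalisation, but its median was -0.13 with TPM and -0.17 with quantile normalisation. Summed FPKM was 7516 in LPS and 7375 in unstimulated cells. As a share of all FPKM this was 1.15% in LPS and 1.33% in unstimulated cells. Cox8a and Cox4i1, the most abundant subunits, had changes of 0.32 and 0.27, which were 0.07 and 0.02 with TPM and 0.09 and 0.02 with quantile normalisation. Cox8a (chr19:7289648-7292106) stood at 1849 FPKM (1818 to 1879) in LPS and 1481 FPKM (1453 to 1509) in unstimulated cells. Cox4i1, a regulatory subunit that binds ATP, stood at 1448 FPKM in LPS and 1204 FPKM in unstimulated cells.

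Cox7b (chrX:103211039-103217789), a small subunit needed for assembly of the complex, had the lowest change of the 82 genes. It stood at 270 FPKM (263 to 278) in LPS and 529 FPKM (518 to 540) in unstimulated cells, a ratio of 0.511 (0.494 to 0.530) and a change of -0.97. It passed 2-fold with TPM at -1.21 and with quantile normalisation at -1.34, and was at -0.74 with median scaling. Cox6c and Cox7c, small subunits like Cox7b, stood at 510 and 373 FPKM in LPS, against 672 and 454 FPKM in unstimulated cells. The small subunit Cox6b1, which joins the monomers into a dimer, stood at 556 FPKM in LPS and 493 FPKM in unstimulated cells, so the small subunits of complex IV did not all lie on the same side of 0. Cox5a and Cox5b, peripheral subunits on the matrix side, had changes of 0.26 and 0.05.

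Among the isoform families, the muscle form Cox6a2 was present beside the ubiquitous Cox6a1, and the other tissue forms were near 0 or low. Cox6a2 (chr7:135348949-135349880), known as the heart and muscle form, stood at 142 FPKM (135 to 149) in LPS and 87.8 FPKM (81.9 to 93.8) in unstimulated cells, a ratio of 1.62 (1.48 to 1.76) and a change of 0.69. Cox6a1 (chr5:115795663-115798964) stood at 871 FPKM (850 to 893) in LPS and 646 FPKM (627 to 665) in unstimulated cells, a change of 0.43. Both genes were higher in LPS, and Cox6a2 reached 16.3% of the Cox6a1 level in LPS and 13.6% in unstimulated cells. Its change stayed above 0 with each scaling, between 0.42 and 0.91. Its locus shares 69 bases with the end of Itgad, a myeloid integrin gene listed at 1.61e-05 FPKM in LPS and 1.69e-05 FPKM in unstimulated cells. The locus also overlaps a further transcript row that matched no gene symbol, whose level is not given here. Of 8 striated muscle markers 6 were at 0 in both libraries, and their summed level was 0.250 FPKM in LPS and 0.575 FPKM in unstimulated cells.

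Cox7a1, another muscle form, stood at 25.3 FPKM (20.1 to 30.5) in LPS and 21.3 FPKM (16.4 to 26.2) in unstimulated cells, on 95 and 76 implied fragments, and its intervals overlapped. The ubiquitous Cox7a2 stood at 192 FPKM in LPS and 226 FPKM in unstimulated cells. Cox7a2l stood at 423 FPKM in LPS and 558 FPKM in unstimulated cells. Cox7a1 made up 3.96% of the FPKM of these 3 genes in LPS and 2.64% in unstimulated cells.

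The remaining tissue forms were below 1 FPKM in both libraries. The lung form Cox4i2 was listed at 0 in LPS and 0.0870 FPKM in unstimulated cells, and the muscle form Cox8b at 0.543 FPKM in LPS and 0 in unstimulated cells. Ndufa4l2, known as a hypoxia-induced relative of Ndufa4, stood at 0.172 FPKM in LPS and 0.0601 FPKM in unstimulated cells. The testis forms Cox6b2, Cox7b2 and Cox8c were listed at 0 in both libraries.

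**Figure D3:**
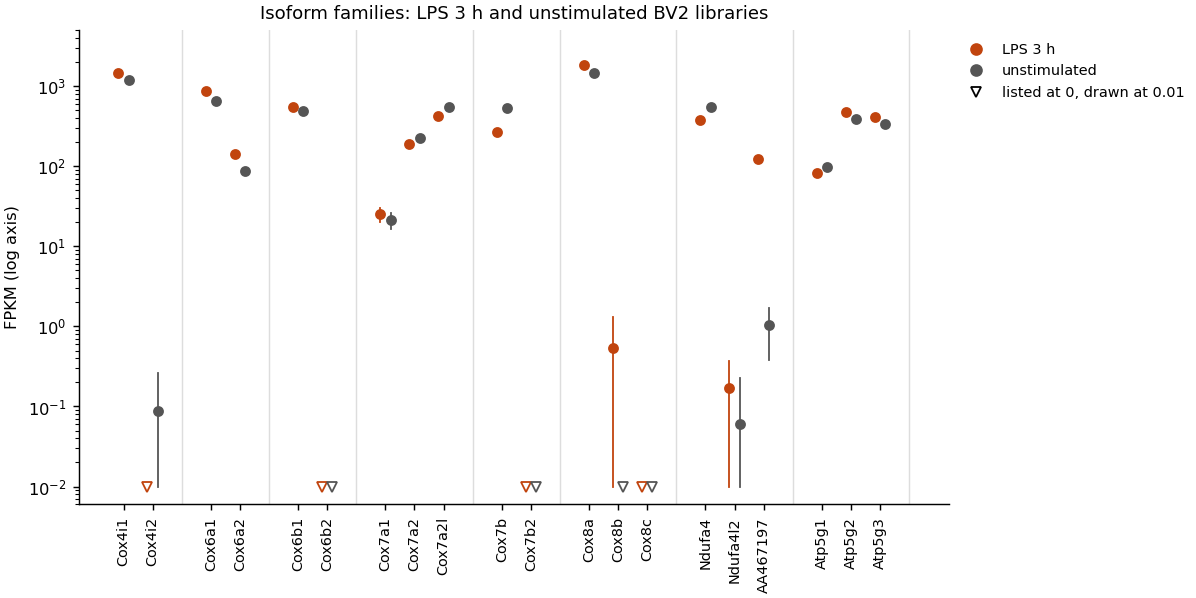
FPKM of each gene of the isoform families in LPS (left) and unstimulated (right) BV2 cells, on a log axis with the deposited 95% intervals and with values listed at 0 drawn at 0.01. Cox4i1, Cox6a1, Cox6b1, Cox7b and Cox8a lie highest in their families and Cox7a2l in that of Cox7a, Cox6a2 lies at 142 FPKM in LPS and 87.8 FPKM in unstimulated cells, and AA467197 is the gene with a wide gap between the libraries.

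The one large difference in an isoform family lay outside the name pattern. AA467197 (chr2:122463623-122466812), also called Nmes1, encodes a small protein related to Ndufa4, and it is known as a gene that inflammation induces in macrophages. It stood at 124 FPKM (117 to 131) in LPS and 1.04 FPKM (0.377 to 1.71) in unstimulated cells, a ratio of 118 (62.3 to 225) and a change of 5.93. The low value rests on 9.79 implied fragments, against 1243 in LPS. The change stayed between 4.41 and 6.76 with other pseudocounts and scalings. The locus also holds Mir147, a microRNA gene listed at 0 in both libraries under a low-data status.

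Ndufa4 itself (chr6:11850373-11857446) stood at 377 FPKM (362 to 392) in LPS and 552 FPKM (534 to 571) in unstimulated cells, a ratio of 0.683 (0.648 to 0.720) and a change of -0.55. Its change stayed below 0 with each scaling, between -0.33 and -0.87. AA467197 thus reached 32.7% of the Ndufa4 level in LPS and 0.189% in unstimulated cells. Of the FPKM of Ndufa4, Ndufa4l2 and AA467197 together, AA467197 held 24.7% in LPS and 0.189% in unstimulated cells. The 3 genes together summed to 501 FPKM in LPS and 553 FPKM in unstimulated cells.

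The sequences upstream of AA467197 and Ndufa4 are shown because these relatives had opposite values, and that of Cox6a1 because it holds motifs of nuclear regulators of respiratory genes. Each is the 250 bases before the gene's start, 5′ to 3′ on the gene's strand, from RefSeq on GRCm38.p6. They come from chr2:122637637-122637886 on the plus strand for AA467197, from chr6:11907451-11907700 on the minus strand for Ndufa4 and from chr5:115348959-115349208 on the minus strand for Cox6a1. Capitals mark motif matches found on either strand.
AA467197: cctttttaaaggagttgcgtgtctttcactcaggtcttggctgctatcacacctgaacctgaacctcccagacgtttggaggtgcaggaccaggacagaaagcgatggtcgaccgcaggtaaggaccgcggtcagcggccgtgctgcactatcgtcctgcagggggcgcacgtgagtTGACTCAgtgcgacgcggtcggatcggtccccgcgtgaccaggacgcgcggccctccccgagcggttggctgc
Ndufa4: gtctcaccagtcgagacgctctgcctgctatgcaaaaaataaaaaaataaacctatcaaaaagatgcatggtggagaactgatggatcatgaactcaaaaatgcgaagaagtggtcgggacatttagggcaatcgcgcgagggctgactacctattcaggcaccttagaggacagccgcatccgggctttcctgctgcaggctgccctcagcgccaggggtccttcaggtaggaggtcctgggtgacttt
Cox6a1: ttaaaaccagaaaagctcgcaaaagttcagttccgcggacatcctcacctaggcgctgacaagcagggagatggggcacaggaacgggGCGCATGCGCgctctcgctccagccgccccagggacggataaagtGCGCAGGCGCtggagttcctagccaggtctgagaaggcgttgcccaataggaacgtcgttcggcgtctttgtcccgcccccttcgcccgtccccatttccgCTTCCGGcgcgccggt
Searched were the motifs of NRF1 (GCGCA, any base, GCGC), of ETS factors such as GABP (CCGGAAG), of AP-1 (TGANTCA) and of NF-kB (GGGA, any 2 bases, TTCC), and the TATA box (TATAAA). The AA467197 window holds an AP-1 match, TGACTCA. The Ndufa4 window holds none of the 5 motifs. The Cox6a1 window holds NRF1 matches at 2 places, GCGCATGCGC and GCGCAGGCGC, and an ETS match on the opposite strand close to the start, CTTCCGG.

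Over the genes with an upstream sequence, 70 of the 82 counted genes were matched. These 70 were all at 1 FPKM or more in at least 1 library, whereas the mouse genes set beside them were taken whatever their level. A comparison with expressed genes alone was not made. NRF1, a factor known to drive respiratory chain genes, had a match at 12 of the 70 (17.1%), against 4.23% of the 27025 mouse genes with a sequence. ETS matches were at 13 of the 70 (18.6%), against 7.83% of all genes. AP-1 matches were at 6 (8.57%), against 7.82%, NF-kB matches at 1 (1.43%), against 1.36%, and TATA boxes at 6 (8.57%), against 14.3%. The NRF1 matches were at genes of both directions, among them Ndufa5 and Ndufaf4 below 0 and Cox6a1 and Atp5g2 above 0. A match is a description of these letters and not a site in use.

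In complex V, the ATP synthase, the medians of the catalytic head and of the proton-carrying ring were above 0 and those of the stalk and the small membrane subunits below 0, though not every gene lay on the side of its group and the head median was below 0 with TPM and quantile normalisation. The 17 genes, all counted, had the lowest median change of the complexes, -0.18, and summed to 8184 FPKM in LPS and 9691 FPKM in unstimulated cells. The 5 subunits of the F1 head and its central shaft had a median change of 0.14 and summed to 2523 FPKM in LPS and 2316 FPKM in unstimulated cells. As a share of all FPKM this was 0.385% in LPS and 0.418% in unstimulated cells. The genes Atp5a1 and Atp5b, which encode the alternating alpha and beta subunits of the head, stood at 466 and 960 FPKM in LPS, against 390 and 873 FPKM in unstimulated cells. Their intervals separated upwards. Atp5d (chr10:79605060-79608563), the delta subunit of the shaft, had the highest change of the complex, at 301 FPKM (292 to 309) in LPS and 198 FPKM (191 to 206) in unstimulated cells, a ratio of 1.51 (1.45 to 1.58) and a change of 0.60. The gamma and epsilon subunits of the same shaft, from Atp5c1 and Atp5e, stood at 628 and 169 FPKM in LPS, against 663 and 191 FPKM in unstimulated cells.

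The c ring, the rotor that protons turn, is made of identical proteins encoded by 3 genes that differ in their mitochondrial import signal. Atp5g2 and Atp5g3 stood at 472 and 417 FPKM in LPS, against 391 and 339 FPKM in unstimulated cells. Atp5g1 stood at 82.6 FPKM (76.7 to 88.6) in LPS and 97.4 FPKM (90.5 to 104) in unstimulated cells, on the other side of 0. Its share of the summed c ring FPKM was 8.51% in LPS and 11.8% in unstimulated cells, and the sum was 971 FPKM in LPS and 827 FPKM in unstimulated cells. As a share of all FPKM that sum was 0.148% in LPS and 0.149% in unstimulated cells.

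The peripheral stalk, which keeps the head from turning with the rotor, had a median change of -0.39 over 4 genes and summed to 872 FPKM in LPS and 1114 FPKM in unstimulated cells. Atp5pb, Atp5h and Atp5j, subunits b, d and F6, stood at 251, 366 and 129 FPKM in LPS, against 347, 455 and 192 FPKM in unstimulated cells. Atp5o, which ties the stalk to the top of the head, was the exception at 126 FPKM in LPS and 119 FPKM in unstimulated cells, with overlapping intervals.

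The 5 small membrane subunits had the lowest median of the 4 groups, -0.48, and summed to 3818 FPKM in LPS and 5434 FPKM in unstimulated cells. Most of that sum was Atp5md (chr19:47157961-47165115), a small subunit also called DAPIT that supports ATP synthase dimers. It stood at 2492 FPKM (2436 to 2548) in LPS and 3813 FPKM (3740 to 3885) in unstimulated cells, a ratio of 0.654 (0.635 to 0.673) and a change of -0.61. It had the highest FPKM of the 82 genes and was the 43rd of the 10035 counted genes in LPS and the 20th in unstimulated cells. Its locus overlaps that of Taf5, a gene of the general transcription machinery. Atp5j2, Atp5l and Atp5mpl, which encode subunits f, g and 6.8PL, stood between 243 and 251 FPKM in LPS and between 339 and 349 FPKM in unstimulated cells. Atp5k, subunit e, was at 590 FPKM in both libraries. The medians of the stalk and of the small membrane subunits stayed below 0 with each scaling, at -0.17 and -0.26 with median scaling and lower with the others. The head median was -0.11 with TPM and -0.22 with quantile normalisation, and the c ring median stayed above 0, at 0.03 and 0.02.

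The other genes of the pathway and of its upkeep were read from further lists. Among all counted genes 8.55% were 2-fold higher and 12.4% lower. A count of 0 in the shorter lists cannot be told apart from those shares. Complex II, succinate dehydrogenase, which feeds electrons into the chain without pumping protons, had 0 of 4 subunits past 2-fold and a median of -0.21. Sdha, its flavin subunit, stood at 64.2 FPKM in LPS and 80.2 FPKM in unstimulated cells, and Sdhc, a membrane anchor, at 193 FPKM in LPS and 165 FPKM in unstimulated cells. A few assembly factors passed 2-fold, all at low levels. Among complex I assembly factors, the Ndufaf genes included, 0 of 17 were 2-fold higher and 2 were 2-fold lower, near the 12.4% of all counted genes that were lower. Tmem126b fell to 6.45 FPKM (5.15 to 7.76) in LPS, against 16.5 FPKM (14.3 to 18.6) in unstimulated cells, and Tmem186 fell to 1.72 FPKM (1.38 to 2.05) in LPS, against 4.61 FPKM (4.05 to 5.17) in unstimulated cells. Both belong to the factors that build the membrane arm.

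Among complex IV assembly factors 1 of 22 was 2-fold higher and 2 were lower, against 8.55% and 12.4% of all counted genes. Cmc2 fell to 4.59 FPKM in LPS, against 11.7 FPKM in unstimulated cells, and Coa4 fell to 7.91 FPKM in LPS, against 18.5 FPKM in unstimulated cells. Both encode small cysteine-motif proteins of the intermembrane space. Pet117, the 1 higher gene, stood at 7.20 FPKM (3.12 to 11.3) in LPS and at 3.67e-09 FPKM (0 to 0.758) in unstimulated cells, so no ratio is given. Its call rests on 12.4 implied fragments in LPS and is uncertain. On the log2(FPKM + 1) scale, 0 of 6 complex III and 0 of 4 complex V assembly factors passed 2-fold. The lowest were Lyrm7, at 1.03 FPKM in LPS and 2.65 FPKM in unstimulated cells, and Atpaf1, at 5.68 FPKM in LPS and 11.6 FPKM in unstimulated cells, and their plain FPKM ratios of 0.389 and 0.490 were past 2-fold. With TPM, Lyrm7, Atpaf1 and Tmem70 passed, and with quantile normalisation Tmem70 did. The 2 calls below 0 among complex I factors became 3 with TPM and 1 with median scaling or quantile normalisation, and the 2 among complex IV factors became 3 with TPM, 0 with median scaling and 1 with quantile normalisation. Coa5, a complex IV factor at 51.2 FPKM in LPS and 28.3 FPKM in unstimulated cells, joined Pet117 past 2-fold with median scaling.

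Regulators of mitochondrial biogenesis and genome upkeep had a median of -0.30, with 0 of 17 genes 2-fold higher and 2 lower, near the 12.4% of all counted genes that were lower. With TPM 5 were lower, and with median scaling and quantile normalisation 2 were lower and 1, Gabpb1, was higher. Twnk, the helicase that replicates mitochondrial DNA, fell to 3.93 FPKM (3.48 to 4.39) in LPS, against 12.9 FPKM (12.1 to 13.8) in unstimulated cells, a change of -1.50. Tfb2m, a transcription factor of the mitochondrial genome, fell to 3.75 FPKM (3.21 to 4.28) in LPS, against 10.6 FPKM (9.64 to 11.5) in unstimulated cells, a change of -1.29 that was -0.83 with a pseudocount of 5. Tfam, which packages mitochondrial DNA, stood at 3.59 FPKM in LPS and 7.22 FPKM in unstimulated cells, a change of -0.84. The plain FPKM ratios of Tfam and Polg2, 0.498 and 0.368, were past 2-fold too, though their changes in log2(FPKM + 1) were not. Polg2 was low, at 0.848 FPKM in LPS on 15.2 implied fragments. Of the factors whose motifs were searched, Nrf1 stood at 11.3 FPKM in LPS and 9.26 FPKM in unstimulated cells, with overlapping intervals. Gabpa, the subunit of GABP that binds the ETS motif, stood at 8.66 FPKM in LPS and 8.58 FPKM in unstimulated cells, also with overlapping intervals. Its partner Gabpb1, which does not bind DNA itself, stood at 13.8 FPKM in LPS and 6.96 FPKM in unstimulated cells, a change of 0.89. Ppargc1a, the coactivator known for driving mitochondrial biogenesis, was listed at 0 in both libraries.

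Genes often used to gauge mitochondrial mass and traffic had a median of -0.01, which was -0.25 with TPM, -0.26 with quantile normalisation and 0.21 with median scaling. Of the 15, 0 were past 2-fold in either direction, where 8.55% of all counted genes were higher and 12.4% lower. Hspd1 was lower by 2-fold with quantile normalisation. Hspd1, a matrix chaperone, stood at 154 FPKM in LPS and 253 FPKM in unstimulated cells, a change of -0.71, and Timm23, of the inner membrane import channel, at 234 FPKM in LPS and 171 FPKM in unstimulated cells, a change of 0.45. Of the 7 counted supercomplex and hypoxia related factors 0 passed 2-fold, with a median of -0.02, and Hif1a, the oxygen-sensing factor, stood at 31.1 FPKM in LPS and 31.6 FPKM in unstimulated cells. Higd1a and Higd2a, proteins that associate with complexes III and IV, had the lowest and highest changes of that list, at 2.23 and 155 FPKM in LPS, against 3.17 and 124 FPKM in unstimulated cells. Ucp2, the uncoupling protein of immune cells, stood at 30.5 FPKM in LPS and 41.7 FPKM in unstimulated cells.

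**Figure D4:**
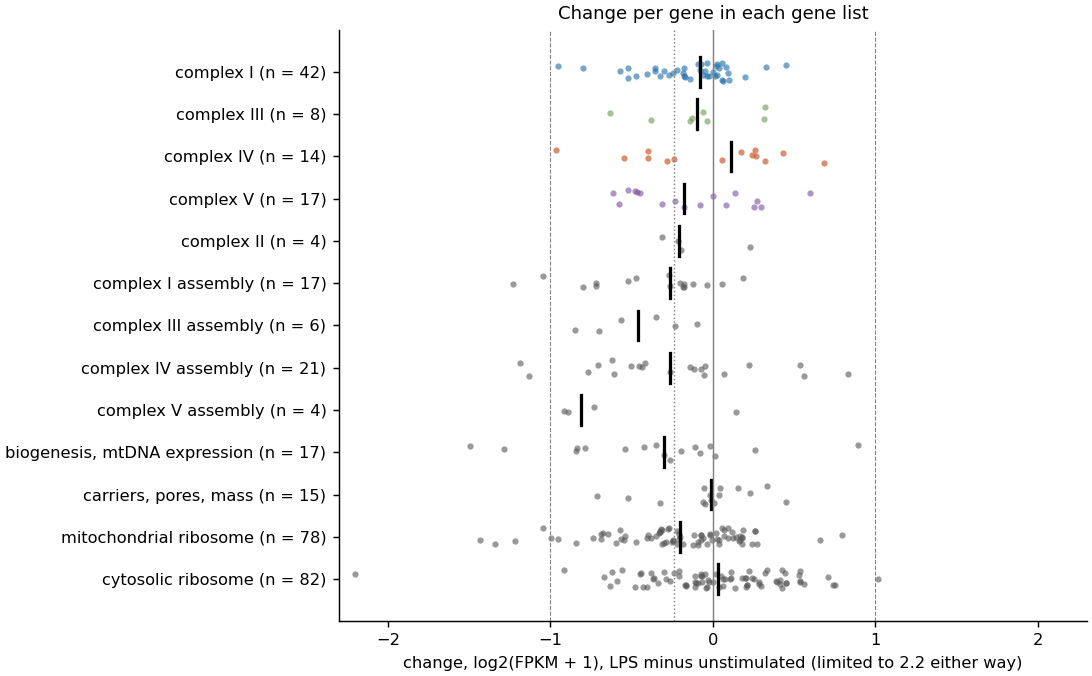
Change in log2(FPKM + 1), LPS minus unstimulated BV2 cells, for each gene of the oxidative phosphorylation complexes and the further lists, with black bars for list medians and a dotted line at the median of all counted genes, -0.24. Values are limited to 2.2 and Pet117 and Ndufs5 are left out; the medians of complexes I, III, IV and V lie at -0.08, -0.10, 0.11 and -0.18.

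The transcripts of these complexes are short, and the change of all genes moved with implied transcript length. Of 76 genes described here with an implied length, 56 were in the shortest of 10 equal length classes of all genes. The median change of all genes was -0.06 in that shortest class and -0.42 in the longest. The median of the 82 genes, -0.08, was thus close to that of short genes in general. The part of length in the result was not tested.

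**Figure D5:**
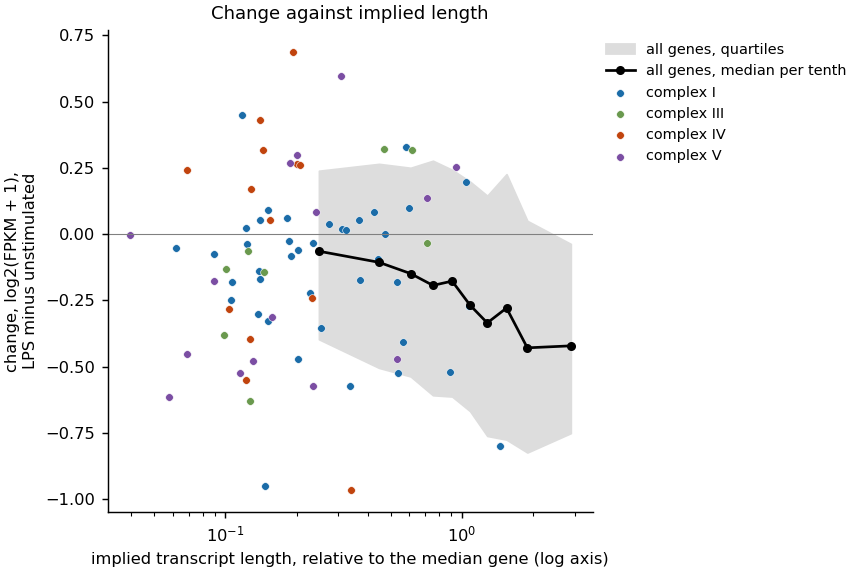
Change in log2(FPKM + 1), LPS minus unstimulated BV2 cells, against implied relative transcript length, for single-row genes of complexes I, III, IV and V (points) and for 10 equal length classes of all genes (median and quartiles). Most points lie in the shortest class, whose median for all genes was -0.06.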

How the data were processed

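RNA of BV2 cells was sequenced as 76-base reads from 1 library of cells given LPS for 3 h and 1 of unstimulated cells. The deposited values are FPKM with 95% bounds and a status per RefSeq transcript row (28246 per table), which the authors made with Cufflinks on mm9, per the submitters' processing notes; the sources used here give no aligner or version. Locus starts were read as 0-based and are written 1-based in mm9. Genes and lists were chosen with earlier results of these data known.

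Of the rows, 27560 matched a symbol in a RefSeq table (GRCm38.p6, used for names and for the upstream sequences). Rows without an accepted status in both libraries (391) and 703 further small RNA rows were left out, and FPKM was summed per symbol (21598 genes). Genes at 1 FPKM or more in either library (10035) were counted. The size rule was a change of 1 in log2(FPKM + 1), 2-fold, with a second rule at 1.5-fold. No p-value was computed, because there is 1 library per group. Bounds of summed rows and of ratios were combined from the deposited bounds. Low FPKM values were whole multiples of the value of 1 fragment: among 5287 single-row genes with 20 to 1000 fragments, 93.5% in LPS and 92.0% in unstimulated cells were whole within 0.05, which gave the implied fragments. Genes named in full were those past 2-fold, in each complex the most abundant and those with the largest changes each way, all isoform family members, and in each further list those past 2-fold or otherwise the largest changes. Further members are named as examples of their structural part, and some list genes (Tfam, Nrf1, Gabpa, Hif1a, Ppargc1a) for their known role, with values seen. Polg2, Mrpl1 and Mrpl50 are named for their plain FPKM ratios. A complex I gene that enters the counts, sums and medians is not reported here by itself. Scripts used Python 3.11.15, numpy 2.4.6, pandas 2.3.3, scipy 1.17.1 and matplotlib 3.10.9 and were tested on simulated data. The alternatives tried were other pseudocounts, filters on low values and on fragments, TPM, median scaling, quantile normalisation, other choices of rows and leaving out non-subunits. Leaving out Ndufs5, leaving out Atp5md and placing Ndufa4 with complex I were chosen after seeing the data.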

Additional observations from a re-analysis of the deposited data

How the results depend on the processing

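No paired analysis was possible because each group has 1 library. Of 187 values recomputed under 11 alternatives and 3 more chosen after seeing the data, 158 were labelled the same. For single genes that meant the same side of the size rule, and for medians a move within the median counting half-width, 0.086. Counts, FPKM shares and isoform shares had fixed tolerances. Some values could not move, because other choices of rows leave a gene on 1 accepted row unchanged. The tally is therefore no measure of stability. The count of 1 gene 2-fold higher became 0 with Ndufs5 left out, with at least 100 implied fragments in both libraries, with a minimum of 5 FPKM and with a pseudocount of 5. The count of 0 genes 2-fold lower became 3 with TPM, where Cox7b, Ndufa5 and Ndufaf4 stood at -1.21, -1.20 and -1.08, and 2 with quantile normalisation, where Cox7b and Ndufa5 stood at -1.34 and -1.21. Scaling moved the median of all counted genes by -0.25 with TPM, 0.19 with median scaling and 0.12 with quantile normalisation. Under these scalings in the same order, the median change was -0.32, 0.14 and -0.31 for all oxidative phosphorylation genes, -0.32, 0.15 and -0.29 for complex I, -0.34, 0.13 and -0.39 for complex III, -0.13, 0.33 and -0.17 for complex IV, and -0.42, 0.044 and -0.47 for complex V. Relative to the median of all counted genes, the oxidative phosphorylation genes stood 0.16 higher with FPKM and TPM, 0.19 higher with median scaling, and at -0.19 with quantile normalisation; the cause was not tested. The difference in the share of summed FPKM, LPS minus unstimulated, was -1.24 percentage points, and was -0.93 without Atp5md and -1.34 with quantile normalisation. The spread between cultures of the same group is unknown, so differences as small as most of these cannot be set against it. Genes under 100 implied fragments, Ndufs5 and Cox7a1, have the widest intervals.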

Other observations

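Ribosomal proteins are, like the respiratory subunits, the products of many nuclear genes whose proteins are built into large complexes. Of 78 counted mitochondrial ribosomal proteins, which translate the mitochondrially encoded respiratory subunits, 0 were 2-fold higher and 4 were 2-fold lower. Among all counted genes, 8.55% were 2-fold higher and 12.4% lower. The median change of the mitochondrial ribosomal proteins was -0.20. Mrpl41 fell to 24.1 FPKM (22.7 to 25.5) in LPS, against 66.7 FPKM (64.4 to 69.0) in unstimulated cells. Mrps35 fell to 29.5 FPKM in LPS, against 76.2 FPKM in unstimulated cells. The other lower ones were Mrpl18, at 15.8 FPKM in LPS and 38.0 FPKM in unstimulated cells, and Mrpl47, at 26.8 FPKM in LPS and 56.4 FPKM in unstimulated cells. On the higher side Mrpl52 stood at 326 FPKM in LPS and 188 FPKM in unstimulated cells, a change of 0.79 that did not reach 2-fold. The count of 4 lower became 7 with TPM and 3 with median scaling, where Mrpl52 was also 2-fold higher. The plain FPKM ratios of Mrpl1 and Mrpl50, 0.480 and 0.497, were past 2-fold too.

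Of 82 counted cytosolic ribosomal proteins, 1 was 2-fold higher and 1 lower, against 8.55% and 12.4% of all counted genes. Their median change was 0.03, and it was -0.22 with TPM and -0.14 with quantile normalisation. Rpl36 rose to 736 FPKM (711 to 761) in LPS, against 363 FPKM (345 to 381) in unstimulated cells, a call that was lost with TPM and with quantile normalisation. With TPM 2 were lower, Rpl26 and Rpl3l, and the plain FPKM ratio of Rpl3l was 0.455. Rpl26 was listed at 0.00244 FPKM (0 to 0.258) in LPS and 12.3 FPKM (8.70 to 15.9) in unstimulated cells, both low beside the median of 593 FPKM in LPS and 595 FPKM in unstimulated cells for this list, and many ribosomal protein genes have near-identical pseudogenes that can share their reads.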
